A study of Mus musculus with 8 samples.

Results

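Gluconeogenesis is the synthesis of glucose from lactate, glycerol and amino acids, which the liver carries out during fasting and which insulin restrains after a meal. Described here are 7 genes of this route, namely Pcx, Mdh1, Pck1, Pck2, Fbp1, G6pc and Slc37a4, out of 19938 genes measured by a probe set with a single gene symbol. Members were taken by their symbol in the platform annotation, and each was represented by 1 probe set, so no choice between probe sets arose. Liver RNA came from 8 adult male mice, 4 labelled as carrying a Rictor deletion in the liver (Albumin-Cre, Rictor LoxP/LoxP) and 4 labelled wild type. All animals went without food for 16 h and then had free access to it for 3 h before the liver was frozen. The strain, and whether the wild-type mice carried a floxed allele without Cre, are not given in the sources used here. Cre under the albumin promoter acts in hepatocytes and can also act in bile duct cells, which share a precursor with them, while blood, endothelial and stellate cells keep the gene.

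Rictor distinguishes mTOR complex 2 from mTOR complex 1. The complex that contains it phosphorylates Akt downstream of the insulin receptor. Akt in turn keeps the transcription factor FoxO1 out of the nucleus, and FoxO1 together with cAMP-driven factors activates Pck1 and G6pc in fasted hepatocytes. The route itself bypasses the irreversible steps of glycolysis. Pyruvate carboxylase (Pcx) and a phosphoenolpyruvate carboxykinase (Pck1 in the cytosol, Pck2 in mitochondria) convert pyruvate to phosphoenolpyruvate by way of oxaloacetate, and the cytosolic malate dehydrogenase Mdh1 regenerates oxaloacetate from malate exported by mitochondria. Fructose-1,6-bisphosphatase (Fbp1) acts near the middle, and the glucose-6-phosphatase system ends the route. Its transporter Slc37a4 carries glucose 6-phosphate into the endoplasmic reticulum, where G6pc hydrolyses it.

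Pck1 and G6pc had the widest ranges among the 7 genes, and the sequence before their start sites is shown because both are textbook targets of insulin and cAMP. The 250 bases before each start, read 5′ to 3′ from the RefSeq table of build GRCm38.p6, lie at chr2:173152823-173153072 on the plus strand for Pck1 and at chr11:101367466-101367715 on the plus strand for G6pc. Capitals mark motif matches found on either strand.
Pck1: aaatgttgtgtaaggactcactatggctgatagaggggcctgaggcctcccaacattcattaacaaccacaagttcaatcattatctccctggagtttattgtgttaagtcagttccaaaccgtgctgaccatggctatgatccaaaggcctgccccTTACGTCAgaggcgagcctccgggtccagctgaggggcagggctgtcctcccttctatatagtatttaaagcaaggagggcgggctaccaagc
G6pc: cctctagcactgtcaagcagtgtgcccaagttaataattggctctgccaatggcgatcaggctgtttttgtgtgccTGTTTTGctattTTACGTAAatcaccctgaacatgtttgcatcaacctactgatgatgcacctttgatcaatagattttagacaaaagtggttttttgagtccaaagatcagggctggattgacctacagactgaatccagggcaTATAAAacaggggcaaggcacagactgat
The letters searched were CAAAACA (core of the insulin response element that FoxO1 binds), GTAAACA (forkhead consensus), TTACGTNA (cAMP response element, with letters chosen to cover the elements known for these promoters) and TATAAA. TTACGTNA matched Pck1 at positions -93 to -86 and G6pc at -162 to -155, counted back from -1 at the base before the start, and it occurs in 0.788% of 32851 promoter windows of the same length. Its letters were chosen to match these promoters, so that share does not measure how unusual the matches are. CAAAACA matched G6pc on the minus strand at -174 to -168, a few bases from the TTACGTNA match, and did not match the Pck1 window. Sequence farther upstream was not searched, so this does not show that the Pck1 promoter lacks CAAAACA. Of all windows 5.56% hold it. G6pc also has TATAAA at -29 to -24, which 12.4% of windows hold. Among the other members, CAAAACA matched the Pck2 window at -159 to -153 and TATAAA matched 1 of 3 Slc37a4 windows at -32 to -27. Fbp1, Pcx and Mdh1 windows held none of these letters, and GTAAACA, found in 3.17% of windows, was in no member's window. A match describes the sequence and does not show binding.

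Expression was read as log2 RMA values from 1 array per mouse, and the medians of the 8 arrays ran from 6.90 to 7.03. The lowest median was that of knockout-labelled array 1, and the next was 6.97 on wild-type array 1. All directions rest on the labels, since the Rictor probe set itself read 9.15, 9.51, 9.68 and 9.47 on knockout-labelled arrays 1 to 4, against 9.47, 9.28, 9.23 and 9.64 on wild-type arrays 1 to 4. A whole-transcript probe set can read exons outside the deleted part and RNA of other cells, so it does not check the genotype. The measured hepatocyte markers (7 of 10 listed, Alb, Ttr and Apoa1 among them) averaged 13.77 to 13.81 on the knockout-labelled arrays and 13.74 to 13.82 on the wild-type arrays. At values this high, whether differences are compressed was not tested, so these means do not show equal hepatocyte content. Array 1 of each group stood apart. On the first principal component, with 35.8% of the variance, knockout-labelled array 1 lay at -0.310, against 0.410 to 0.458 for the others of its group, and wild-type array 1 lay at -0.0293, against -0.344 to -0.298. Over the 21789 probe sets with a single gene symbol, knockout-labelled array 1 had a mean correlation of 0.9920 with the others of its group and 0.9950 with the wild-type arrays. Whether the samples numbered 1 were exchanged, or differed in feeding, was not tested, and every group difference below depends on their labels. Results are therefore also given without these arrays. That choice was made with the data known, and both arrays lay toward the other group in several genes below, so such fits widen the difference by construction and are not independent tests.

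Transcripts of Pck1 and G6pc, the cytosolic carboxykinase and the final phosphatase, had means 1.47-fold and 1.48-fold higher in knockout-labelled livers than in wild-type livers, although neither difference passed the test across all genes. The transcripts of the other 5 genes differed less, by 1.15-fold or under in either direction. The log2 differences, knockout-labelled minus wild type, were 0.55 for Pck1 and 0.56 for G6pc, and those of the other members ran from -0.02 for Fbp1 to 0.20 for Pck2. In the limma fit over the probe sets with a single gene symbol, 0 of the 7 members passed an adjusted p of 0.05 and 0% of all genes did. No gene had an adjusted p under 0.140. At an unadjusted limma p under 0.05 stood 3 members, Pck1, G6pc and Pcx, all higher in knockout-labelled livers, where 3.84% of all genes were higher and 10.5% differed in either direction. The median difference was 0.19 over the 7 members and -0.02 over all genes, and 6 of 7 members had a higher mean, against 43.1% of all genes. On 8 arrays the groups overlapped in all 7 members, where 4.42% of all genes did not overlap. In whole liver, fewer cells of a type and less RNA per cell cannot be told apart.

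**Figure D1:**
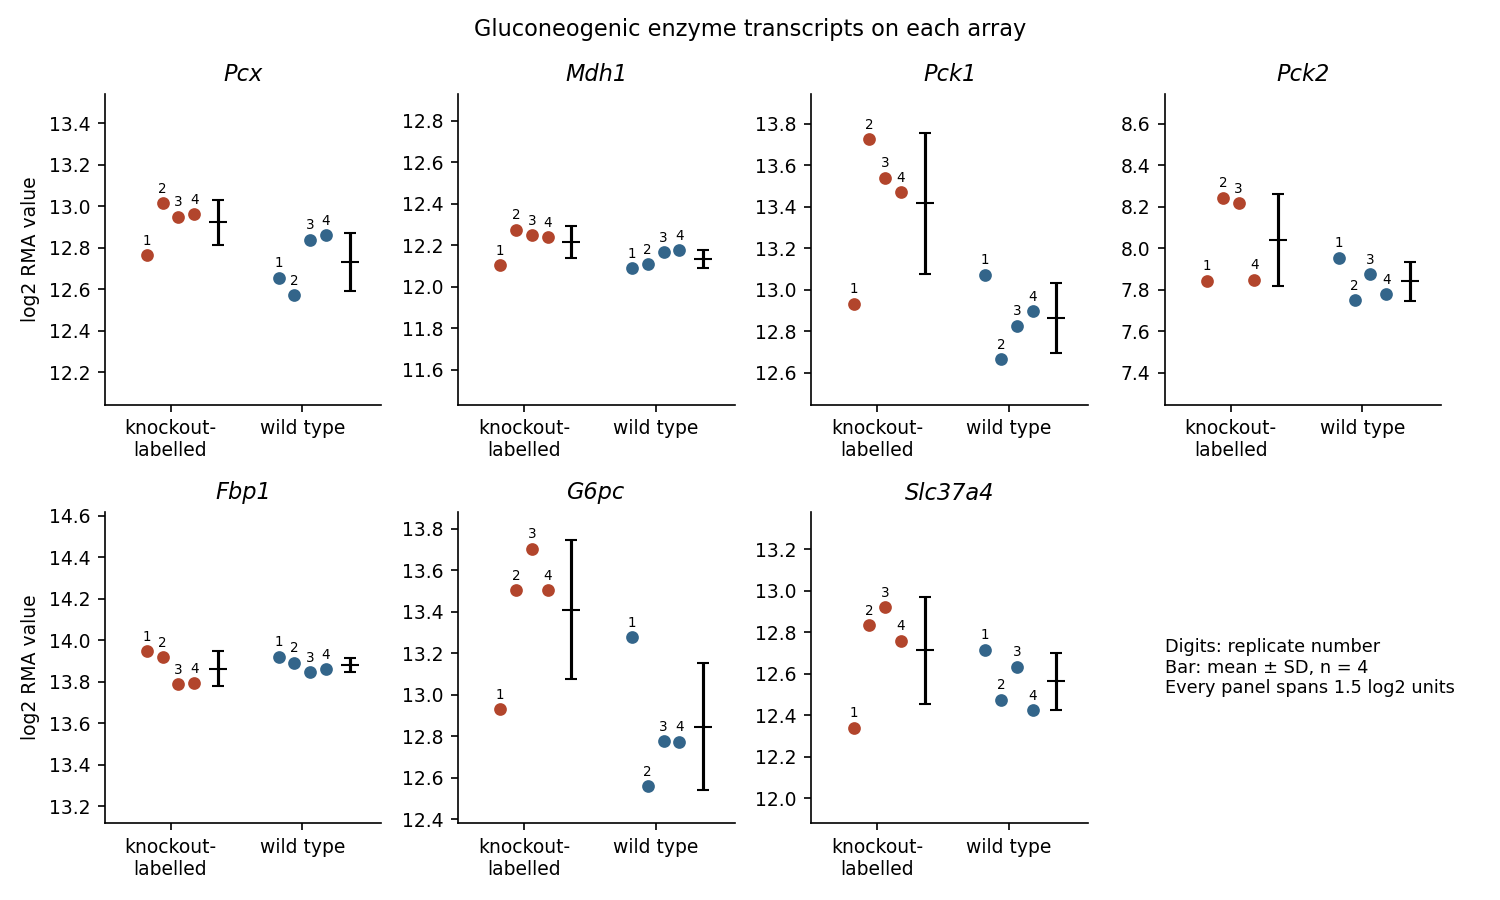
Log2 RMA value (vertical axis, each panel spanning the same distance) of each of the 7 genes on every array, with knockout-labelled livers (n = 4) left of wild-type livers (n = 4); digits give the replicate number and bars the mean ± SD. In the Pck1 and G6pc panels knockout-labelled arrays 2 to 4 lie above all wild-type arrays and array 1 does not, whereas the Fbp1 points of both groups fall together.

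The route begins with Pcx, the mitochondrial enzyme that carboxylates pyruvate to oxaloacetate. Pcx read 12.76, 13.02, 12.95 and 12.96 on knockout-labelled arrays 1 to 4, against 12.65, 12.57, 12.84 and 12.86 on wild-type arrays 1 to 4. Arrays 2 to 4 of the knockout-labelled group lay above every wild-type array, while its array 1 lay between wild-type arrays 1 and 3, so the groups overlapped. The means were 12.92 ± 0.11 in knockout-labelled livers and 12.73 ± 0.14 in wild-type livers (SD, n = 4 each), a log2 difference of 0.19 (SE 0.08, 95% interval 0.0079 to 0.37) that did not pass (limma adjusted p = 0.436; exact permutation p = 0.0857). Here the wild-type spread came from arrays 1 and 2, both lower than arrays 3 and 4, unlike the pattern in Pck1 and G6pc.

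Mdh1, which reforms cytosolic oxaloacetate from malate, varied little. It read 12.10, 12.27, 12.25 and 12.24 on knockout-labelled arrays 1 to 4, against 12.09, 12.11, 12.17 and 12.18 on wild-type arrays 1 to 4. Again arrays 2 to 4 of the knockout-labelled group were above all wild-type arrays and array 1 was among the low ones. The difference of 0.08 (SE 0.07, 95% interval -0.071 to 0.23) did not pass (limma adjusted p = 0.727; exact permutation p = 0.114).

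Pck1, the cytosolic phosphoenolpyruvate carboxykinase and a classic insulin-repressed gene of liver, read 12.93, 13.73, 13.54 and 13.47 on knockout-labelled arrays 1 to 4, against 13.07, 12.67, 12.83 and 12.90 on wild-type arrays 1 to 4. All 4 knockout-labelled arrays exceeded the wild-type mean, but array 1 of that group lay below wild-type array 1, and this pair alone made the groups overlap. The means were 13.42 ± 0.34 in knockout-labelled livers and 12.87 ± 0.17 in wild-type livers (SD, n = 4 each), a log2 difference of 0.55 (SE 0.14, 95% interval 0.24 to 0.86). It did not pass (limma adjusted p = 0.204; exact permutation p = 0.0571, against a smallest possible 0.0286). Ordered from the most positive difference down, Pck1 was number 67 and G6pc number 60 of 19938 genes.

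Pck2 encodes the mitochondrial form of the same enzyme. It read 7.84, 8.24, 8.22 and 7.85 on knockout-labelled arrays 1 to 4, against 7.96, 7.75, 7.88 and 7.78 on wild-type arrays 1 to 4. Only arrays 2 and 3 of the knockout-labelled group stood above the wild-type arrays, and arrays 1 and 4 fell inside the wild-type range. The difference of 0.20 (SE 0.11, 95% interval -0.044 to 0.44) did not pass (limma adjusted p = 0.548; exact permutation p = 0.229).

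Fbp1, the bisphosphatase that reverses the phosphofructokinase step, was alike in both groups within its small spread. It read 13.95, 13.92, 13.79 and 13.79 on knockout-labelled arrays 1 to 4, against 13.92, 13.89, 13.85 and 13.86 on wild-type arrays 1 to 4. The wild-type values lay inside the knockout-labelled range, and the 8 arrays together spanned 0.16. Fbp1 was brighter than 99.88% of genes, where Pck1 and G6pc were each brighter than 99.2%. Whether differences are compressed at such values was not tested. The difference was -0.02 (SE 0.06; limma adjusted p = 0.947), with a 95% interval of -0.14 to 0.11, and its sign turned without knockout-labelled array 3 or 4 (0.0074 and 0.0055).

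G6pc, the catalytic subunit of glucose-6-phosphatase, had the largest difference of the 7 genes. It read 12.93, 13.50, 13.70 and 13.50 on knockout-labelled arrays 1 to 4, against 13.28, 12.56, 12.77 and 12.77 on wild-type arrays 1 to 4. As in Pck1, arrays 2 to 4 of the knockout-labelled group were above every wild-type array, and wild-type array 1 stood above knockout-labelled array 1. The means were 13.41 ± 0.33 in knockout-labelled livers and 12.85 ± 0.30 in wild-type livers (SD, n = 4 each), a log2 difference of 0.56 (SE 0.17, 95% interval 0.20 to 0.92) that did not pass (limma adjusted p = 0.249; exact permutation p = 0.0571).

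Slc37a4, the glucose 6-phosphate transporter that feeds G6pc, read 12.34, 12.84, 12.92 and 12.76 on knockout-labelled arrays 1 to 4, against 12.72, 12.48, 12.63 and 12.43 on wild-type arrays 1 to 4. Knockout-labelled array 1 was the lowest of all 8, while the other 3 of its group were the highest. The difference was 0.15 (SE 0.12, 95% interval -0.10 to 0.40) and did not pass (limma adjusted p = 0.689; exact permutation p = 0.343).

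The arrays numbered 1 thus set the spread of several members. Knockout-labelled array 1 was the lowest of its group in 6 of the 7 genes, Fbp1 being the exception, against 31.9% of all genes. Wild-type array 1 was the highest of its group in 5 members (Pck1, Pck2, G6pc, Fbp1 and Slc37a4), against 26.4% of all genes, and 4 members showed both features, against 7.67%. Knockout-labelled array 1 minus the mean of the other 3 arrays of its group was -0.65 in Pck1, -0.64 in G6pc, -0.50 in Slc37a4 and -0.26 in Pck2. In Pck2, however, knockout-labelled array 4 (7.85) was nearly as low as array 1 (7.84), so array 1 did not stand apart there. Wild-type array 1 lay above the mean of the other wild-type arrays by 0.57 in G6pc, 0.28 in Pck1 and 0.21 in Slc37a4. The same 2 arrays changed places in Igfbp1, a secreted IGF-binding protein repressed by insulin, with 7.76 on knockout-labelled array 1 and 10.10, 10.10 and 9.65 on arrays 2 to 4 of that group, against 10.04 on wild-type array 1 and 7.40, 7.30 and 7.29 on wild-type arrays 2 to 4. Irs2, an adaptor of the insulin receptor whose transcript insulin lowers, read 8.24, 9.29, 9.30 and 9.21 on knockout-labelled arrays 1 to 4, against 9.08, 8.30, 8.30 and 8.37 on wild-type arrays 1 to 4. What set array 1 of each group apart in Igfbp1, Irs2 and the members was not tested.

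**Figure D2:**
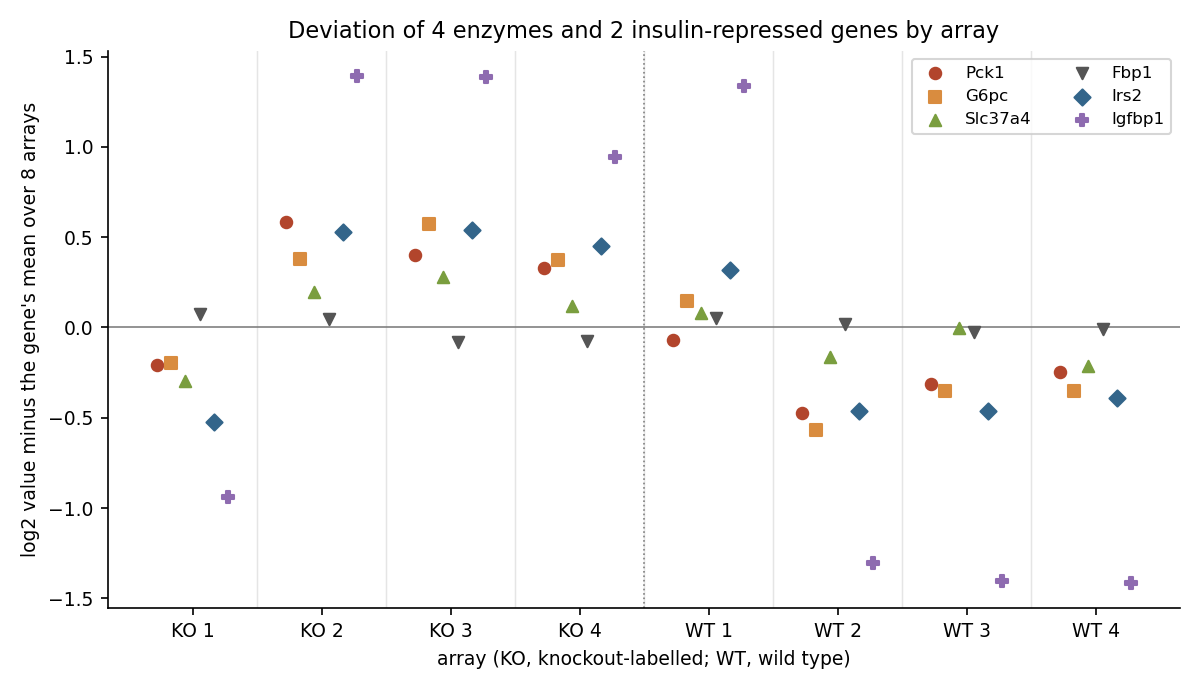
Deviation of each gene's log2 value from its own mean over the 8 arrays (vertical axis) for 4 of the gluconeogenic genes and for the insulin-repressed genes Irs2 and Igfbp1, by array (horizontal axis, knockout-labelled left). On knockout-labelled array 1 Pck1, G6pc and Slc37a4 lie at -0.21, -0.20 and -0.30, on the same side as Igfbp1 at -0.94, while Fbp1 stays within 0.083 of its mean on every array. On wild-type array 1 G6pc and Slc37a4 lie at 0.15 and 0.079, on the same side as Igfbp1 at 1.34, whereas Pck1 lies at -0.069.

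Which arrays were used decided whether Pck1 and G6pc passed. When limma weighted the arrays by their fit, knockout-labelled array 1 counted least (weight 0.467) and wild-type array 2 counted most (2.31). Wild-type array 2 held the lowest Pck1 and G6pc values of its group, while wild-type array 1 (0.827) counted like wild-type array 3 (0.830). Under this weighting 2 of the 7 members passed as higher. These were Pck1 and G6pc, with log2 differences of 0.67 and 0.75 (limma adjusted p = 0.0131 and 0.0194). With these weights 3.55% of all genes passed, 1.31% as higher and 2.23% as lower. Without knockout-labelled array 1 the same 2 members passed, at 0.71 and 0.72 (limma adjusted p = 0.00431 and 0.0130), where 4.4% of all genes passed, 1.1% as higher and 3.3% as lower. Without wild-type array 1, where 0.296% of all genes passed, 0.231% as higher and 0.0652% as lower, neither did (0.62 and 0.71; limma adjusted p = 0.0902 and 0.0567). With neither array numbered 1 in the fit, 3 members passed as higher, Pck1, G6pc and Slc37a4, at 0.78, 0.87 and 0.33 (limma adjusted p = 0.00012, 6.7e-05 and 0.0193). There 7.47% of all genes passed, 2.39% as higher and 5.08% as lower. On arrays 2 to 4 alone, 5 members (Pck1, G6pc, Pcx, Slc37a4 and Mdh1) had every knockout-labelled value above every wild-type value, where 9.15% of all genes did and 24.8% separated in either direction. Pck2 and Fbp1 did not separate there. Over the 18 alternatives run for each gene, the adjusted p of Pck1 reached 0.610 and that of G6pc 0.653, both without knockout-labelled array 3.

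**Figure D3:**
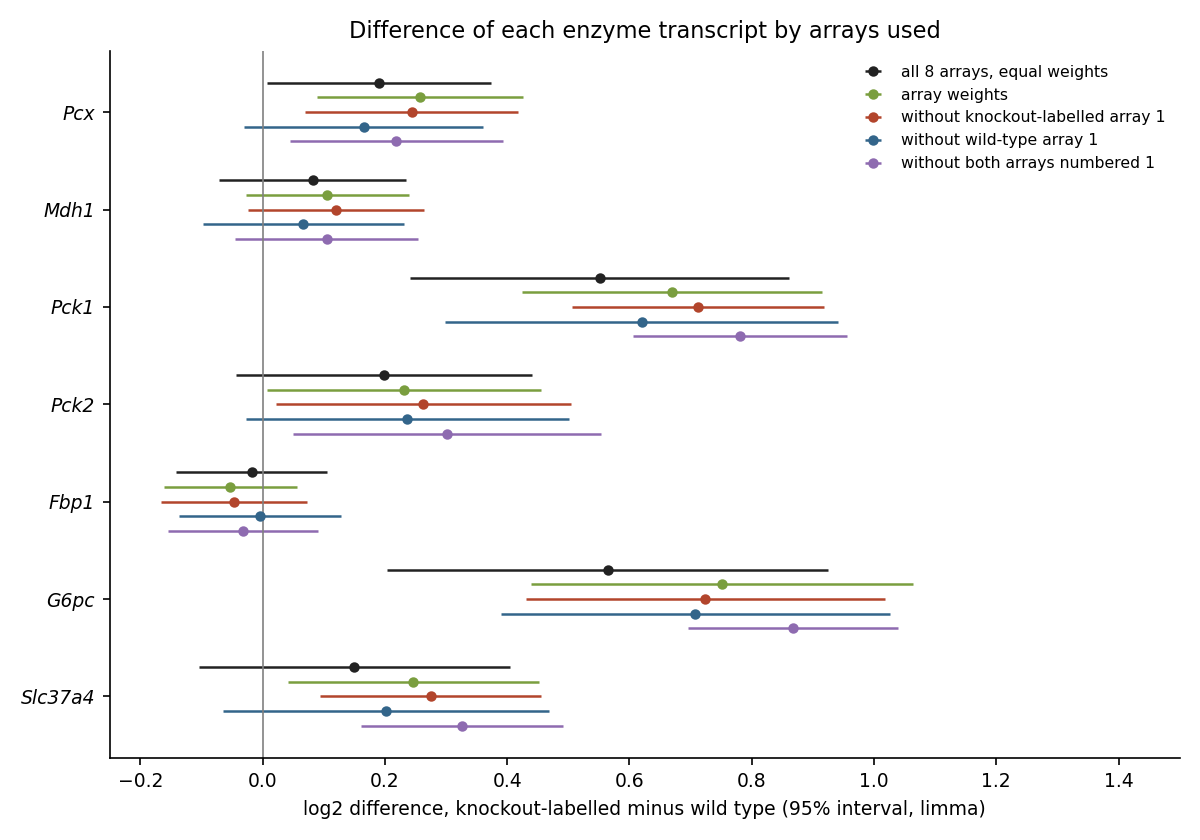
Log2 difference, knockout-labelled minus wild type (horizontal axis), with its 95% interval from limma for each gene, computed with all 8 arrays, with array weights, without array 1 of either group and without both. The Pck1 and G6pc estimates run from 0.55 to 0.87 across these fits, and the Fbp1 intervals span 0 in all of them.

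Because RMA values of different probe sets cannot be set against each other as levels, members were compared by how their within-array log2 ratio differed between the groups. A difference in such a ratio shows unequal change and not which gene changed. Of 5 ratios planned, 4 were computed, and p-values were adjusted over these 4. The ratio of G6pc to its transporter partner Slc37a4 was 0.59, 0.67, 0.78 and 0.74 on knockout-labelled arrays 1 to 4, against 0.56, 0.083, 0.14 and 0.35 on wild-type arrays 1 to 4. Every knockout-labelled array lay above every wild-type array, by 0.03 at the closest, although neither gene separated the groups by itself. The difference was 0.41 (95% interval 0.13 to 0.70; exact permutation p = 0.0286, the smallest that 4 against 4 arrays allow, adjusted p = 0.0571). Set against each of the other genes in turn, G6pc gave such a separation for 3.4% of them.

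The ratio of Pck1 to Pklr, the liver pyruvate kinase that runs the opposing glycolytic step, also separated the groups, again narrowly, with 1.59 as the lowest knockout-labelled value and 1.58 as the highest wild-type value. It differed by 0.53 (95% interval 0.0034 to 1.05; exact permutation p = 0.0286, adjusted p = 0.0571), and Pck1 gave such a separation against 16.4% of other genes. Pklr itself varied widely within each group, from 11.29 to 11.95 on knockout-labelled arrays and from 11.11 to 11.77 on wild-type arrays. The Pck1 to Pck2 ratio, cytosolic against mitochondrial enzyme, was 5.38 ± 0.23 in knockout-labelled livers and 5.03 ± 0.11 in wild-type livers (SD, n = 4 each), and its difference of 0.35 did not separate the groups (95% interval 0.045 to 0.66; exact permutation p = 0.0857). The Fbp1 to Pfkl ratio, the bisphosphatase against liver phosphofructokinase, was 4.74 ± 0.10 in knockout-labelled livers and 4.95 ± 0.12 in wild-type livers (SD, n = 4 each). Its difference was -0.21, opposite in sign to the other 3 (95% interval -0.40 to -0.015; exact permutation p = 0.0857). None of the 4 ratio differences passed after adjustment. The smallest possible exact permutation p, 0.0286, could pass only if most of the 4 ratios reached it. This outcome therefore does not show that the ratios were equal.

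**Figure D4:**
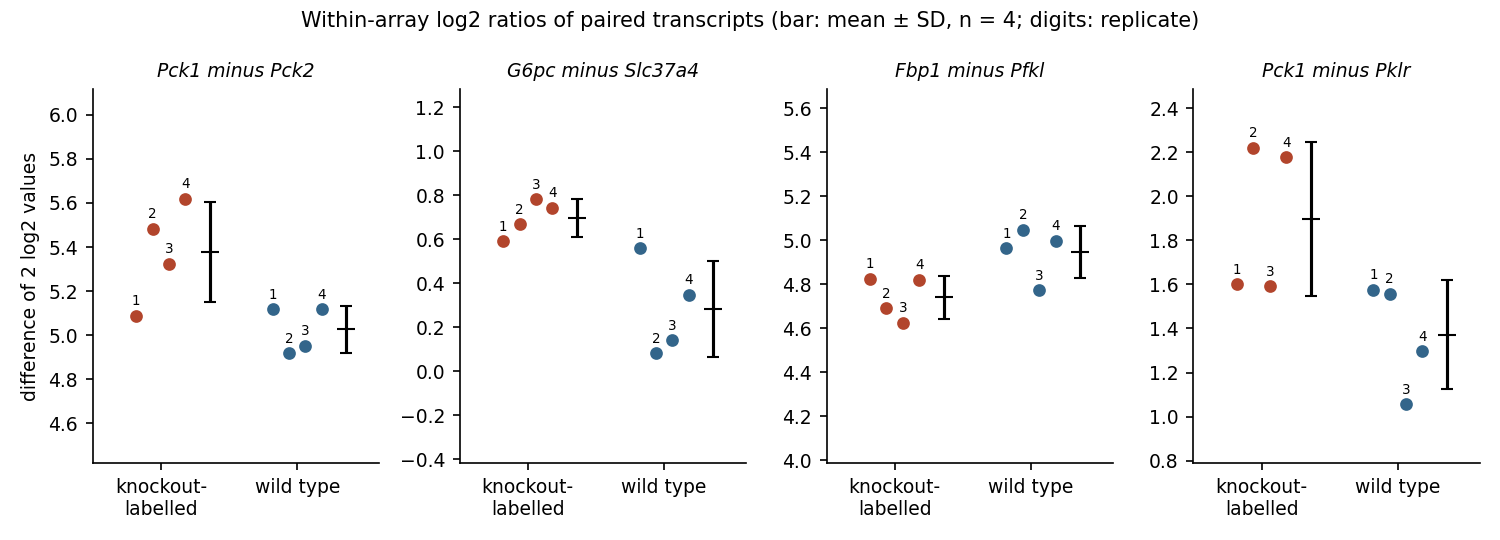
Within-array log2 ratio (difference of 2 log2 values, vertical axis) on each array for the 4 pairs, with knockout-labelled livers (n = 4) left of wild-type livers (n = 4); digits give the replicate number and bars the mean ± SD. G6pc minus Slc37a4 and Pck1 minus Pklr separate the groups with small gaps, and the other pairs overlap.

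The other genes of the pathway were taken from 6 lists, with 46 of 56 listed genes measured, and 0 of them passed with all 8 arrays (limma adjusted p, where 0% of all genes passed). Higher at an unadjusted p under 0.05 were 8, and 1 was lower, where 3.84% of all genes were higher and 6.61% lower. Among 8 isoforms of the member enzymes, the median difference was 0.04, and 3 stood at an unadjusted p under 0.05. Fbp2, the muscle-type bisphosphatase, read 7.03 to 7.27 on knockout-labelled arrays and 6.75 to 6.93 on wild-type arrays, without overlap. It differed by 0.26 (SE 0.08, limma adjusted p = 0.287), at values close to the array medians of 6.90 to 7.03. Slc37a1, a sugar-phosphate exchanger related to Slc37a4, also separated the groups, with 8.24 to 8.53 in knockout-labelled livers and 8.04 to 8.22 in wild-type livers (0.29, SE 0.09; limma adjusted p = 0.279). Groups did not overlap in the upward direction in 1.81% of all genes. The third, Slc37a3, differed by 0.31 (SE 0.12; limma adjusted p = 0.373). G6pc3, the broadly expressed phosphatase, had a mean difference of -0.16, and mitochondrial malate dehydrogenase Mdh2 of -0.03.

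Genes of carbon entry and the mitochondrial shuttles had a median difference of 0.04 over 17 measured, and 3 of them were higher at an unadjusted p under 0.05. Slc25a11, the oxoglutarate carrier that exchanges malate across the inner mitochondrial membrane, read 11.15, 11.57, 11.68 and 11.44 on knockout-labelled arrays 1 to 4, against 11.31, 10.95, 10.996 and 10.78 on wild-type arrays 1 to 4. Its 2 arrays numbered 1 exchanged order as in G6pc, and the difference was 0.45 (SE 0.13; limma adjusted p = 0.249). Gpd2, the mitochondrial glycerol 3-phosphate dehydrogenase through which glycerol carbon can enter, separated the groups, with 10.44 to 11.07 in knockout-labelled livers and 9.91 to 10.36 in wild-type livers (0.49, SE 0.15; limma adjusted p = 0.252). Slc16a1, the lactate and pyruvate transporter MCT1, differed by 0.30 (SE 0.12; limma adjusted p = 0.375). The aminotransferase genes Got1, Got2, Gpt, Gpt2 and Tat had differences between -0.10 and 0.15. Slc2a2, the hepatocyte glucose transporter GLUT2 at the exit of the route, read 11.94, 12.43, 12.44 and 12.29 on knockout-labelled arrays 1 to 4, against 12.18, 11.79, 12.03 and 12.05 on wild-type arrays 1 to 4. Its array 1 values crossed as those of Slc37a4 did, and the difference was 0.26 (SE 0.12; limma adjusted p = 0.453).

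None of the measured genes of the shared reversible steps or of the opposing glycolytic steps passed, and the medians of these lists were 0.063 and 0.064. Of the 7 reversible-step genes 3 were measured, and the 2 with the smallest p were Pgam1, phosphoglycerate mutase, at -0.16 (SE 0.08; limma adjusted p = 0.483), and Tpi1, triosephosphate isomerase, at 0.11 (SE 0.09; limma adjusted p = 0.706). The others of that list were not analysed here. Pgam1 has near-identical copies in the genome, so its value is uncertain. Of the 6 opposing genes 4 were measured, with Pfkl at 0.19 (SE 0.10; limma adjusted p = 0.504) and Pfkfb3, which makes the fructose 2,6-bisphosphate that inhibits Fbp1, at 0.10 (SE 0.10; limma adjusted p = 0.761). Among 13 transcriptional regulators the median difference was 0.0036, and Crtc2, a CREB coactivator, at -0.52 (SE 0.12; limma adjusted p = 0.157), and Cebpb, at 0.37 (SE 0.12; limma adjusted p = 0.291), separated the groups in opposite directions. Groups did not overlap in the downward direction in 2.61% of all genes. Ppargc1a, a coactivator of gluconeogenic genes, differed by 0.10 (SE 0.18) on its brighter probe set and by 0.60 (SE 0.19; limma adjusted p = 0.279) on its other one, so its probe sets disagree in size. Over the 6 lists, 4 genes passed with array weights (Gpd2, Slc25a11 and Cebpb higher, Crtc2 lower), and 4 passed without knockout-labelled array 1 and again without both arrays numbered 1 (Slc25a11, Slc2a2 and Cebpb higher, Crtc2 lower). These are 4 of 46 genes in each fit, where 3.55%, 4.4% and 7.47% of all genes passed in these 3 fits.

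**Figure D5:**
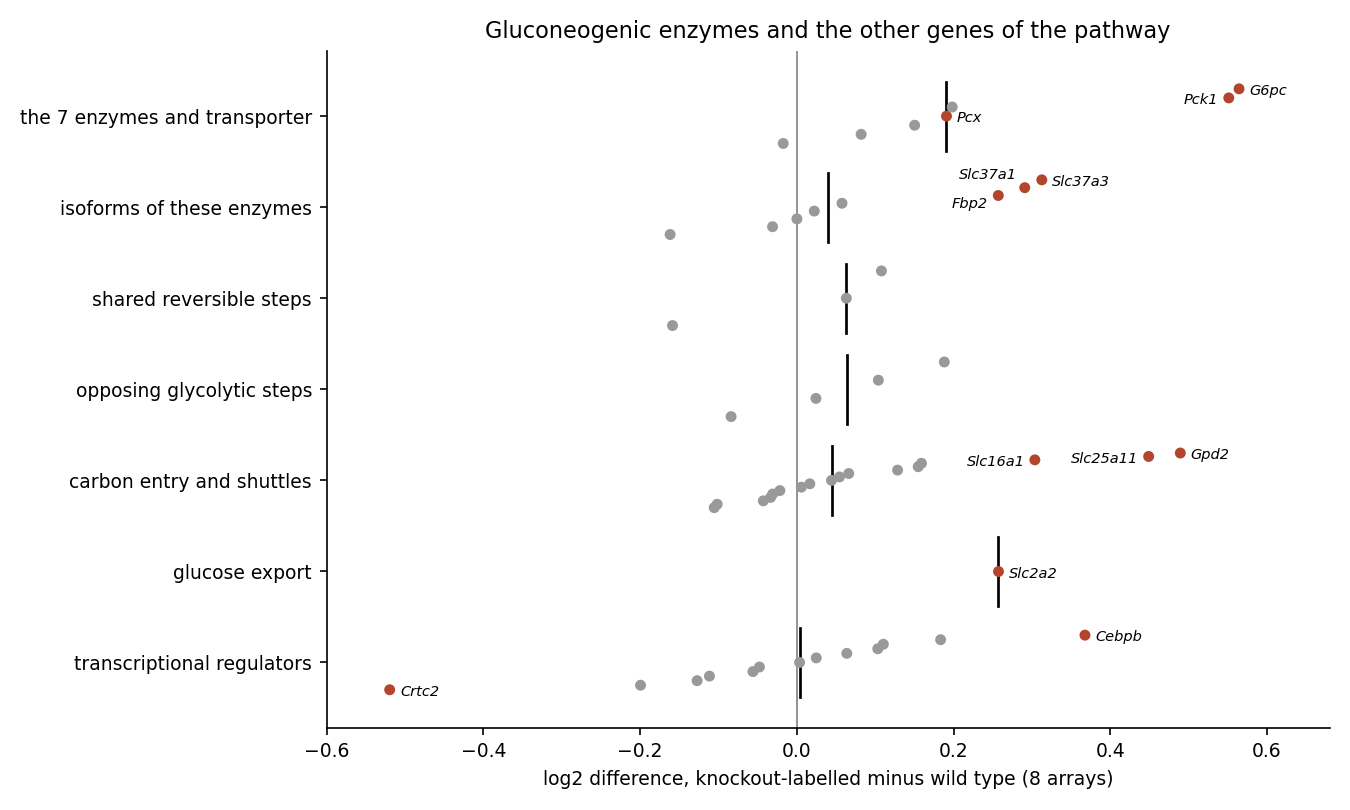
Log2 difference, knockout-labelled minus wild type over all 8 arrays (horizontal axis), for the 7 genes and for 6 lists of related genes; each point is a gene, red points have an unadjusted limma p under 0.05 and are named, and the black bar is the list median. Pck1 and G6pc lie at 0.55 and 0.56, and the medians of the other lists with more than 1 gene run from 0.0036 to 0.064.

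The genes whose array-by-array pattern lay closest to each of the 3 members with the widest ranges were found by the root mean square difference of deviations from the gene's own mean over the 8 arrays. For G6pc these were Daglb (diacylglycerol lipase beta), Erbb3 (a receptor tyrosine kinase of the ERBB family), Lpin2 (a phosphatidate phosphatase) and Anp32a, at 0.0995 to 0.118 log2 units, where the median of all other genes was 0.418. For Pck1 they were Zbtb16 (the transcription factor PLZF), Anp32a, Sft2d1 and Thbd (thrombomodulin), at 0.0955 to 0.117, with a median of 0.382. For Slc37a4 they were Pacs2, Enho (which encodes adropin), Ier3 and Tpbgl, at 0.0325 to 0.0611, with a median of 0.227. Pck1 and G6pc lay 0.135 apart from each other, and Fbp1 lay 0.419 from G6pc, as far as the median gene. These likenesses include the difference between the groups and the arrays numbered 1, and they describe 8 arrays only.

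Markers of other cells that liver tissue can hold were read on the same arrays, and none of them passed with all 8 arrays. The 7 Kupffer cell markers averaged 9.13 to 10.21 on the knockout-labelled arrays and 8.998 to 9.70 on the wild-type arrays, with the top value on knockout-labelled array 4. The 6 endothelial markers averaged 10.18 to 10.55 in knockout-labelled livers and 10.12 to 10.49 in wild-type livers, and the 6 stellate cell markers averaged 9.39 to 9.57 in knockout-labelled livers and 9.27 to 9.69 in wild-type livers. The 5 measured cholangiocyte markers averaged 7.43, 7.12, 7.06 and 7.04 on knockout-labelled arrays 1 to 4, against 7.12, 7.29, 7.48 and 7.37 on wild-type arrays 1 to 4. The 2 measured erythroid markers of 5 listed averaged 8.96, 8.56, 8.55 and 8.65 on knockout-labelled arrays 1 to 4, against 8.59, 8.94, 8.99 and 8.90 on wild-type arrays 1 to 4. In the means of both lists array 1 of each group lay toward the other group, as in Pck1 and G6pc but with the opposite sign. Single markers did not share one direction. Sox9 differed by -0.44, whereas Krt19, Krt7 and Cldn7 differed by 0.017, 0.11 and 0.011, and the cholangiocyte median was 0.011. Of the erythroid markers, Alas2 differed by -0.36 and Slc4a1 by 0.0095. Slc4a1 read 7.02 to 7.24 on knockout-labelled arrays, inside the 6.89 to 7.38 of wild-type arrays. Its value on knockout-labelled array 1 was the lowest of that group, so the raised erythroid mean of that array came from Alas2. Among the cholangiocyte markers Epcam, an epithelial adhesion gene, read 7.03, 6.21, 6.31 and 6.06 on knockout-labelled arrays 1 to 4, against 6.82, 6.85, 7.07 and 6.72 on wild-type arrays 1 to 4, which sets knockout-labelled array 1 with the wild-type arrays as in Pck1. Its difference was -0.46 (SE 0.17, limma adjusted p = 0.354), at values around or below the array medians of 6.90 to 7.03. In the fits in which Pck1 and G6pc passed, Epcam passed as lower too. It lay at -0.57 when arrays were weighted (limma adjusted p = 0.0362), at -0.67 once knockout-labelled array 1 was dropped (limma adjusted p = 0.00545) and at -0.68 once array 1 of each group was dropped (limma adjusted p = 0.00224). Alas2, the erythroid enzyme of heme synthesis, passed as lower in the last pair of these fits, at -0.57 and -0.67 (limma adjusted p = 0.0387 and 0.00448). The cholangiocyte marker Sox9 passed as lower in the last one, at -0.84 (limma adjusted p = 0.0109). Of all genes, 2.23%, 3.3% and 5.08% passed as lower in these fits, in the order given for Epcam. The part of these markers in the results above was not tested.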

How the data were processed

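Liver RNA of 8 mice was measured on Affymetrix Mouse Gene 1.0 ST arrays, 1 array per mouse. The values analysed are those the authors deposited for 35556 probe sets, taken as log2 from their range. Per the submitters' processing notes, RMA, Partek and Affymetrix Expression Console were used, with no version or role given. RMA makes arrays alike in distribution, which hides shifts common to most transcripts. The log base, genome build and probe positions are not given in the sources used here. The number of arrays limits the precision.

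Probe sets with 1 gene symbol in the platform annotation (21789 of 35556; 1621 had several and 12146 none) were fitted with limma 3.58.1 in R 4.3.3 (lmFit, eBayes with trend), knockout-labelled minus wild type, two-sided, unfiltered, with Benjamini-Hochberg adjustment over all of them and 0.05 as threshold. Symbols were updated by Entrez identifier (21698 matched). A gene with several probe sets (999 genes) was counted by its brightest. Exact permutation tests were two-sided and used scipy 1.17.1. The alternatives are given in the closing section. The members, gene lists, motifs and alternatives were chosen with earlier results of these data known, and the labelled arrays numbered 1 were known to stand apart. Besides the members, named genes were those of each pathway list with an unadjusted p under 0.05, or else the 2 with the smallest p, the ratio partners, Rictor, Igfbp1 and Irs2, and the 4 closest patterns of 3 members; others named were chosen after their values were seen. The fit was tested on simulated data. Same-numbered arrays did not deviate together (correlations -0.0930, -0.125, -0.0400 and 0.0738), so numbers were not treated as pairs; no 2 arrays shared more than 18 identical values.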

Additional observations from a re-analysis of the deposited data

Results flagged for a closer look

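In 5 of 56 groups of 4 arrays, a single array stood apart by Dixon's test at its 95% level, which chance gives in about 5% of groups. None was a member or a ratio. Igfbp1 and Irs2 were included for their values on the arrays numbered 1, and other genes for their differences in these data. The 5% is therefore no measure of how unusual the count is. Wild-type array 1 read 10.04 in Igfbp1, against 7.29 to 7.40 on the other wild-type arrays, and 9.08 in Irs2, against 8.29 to 8.37. Knockout-labelled array 1 read 8.24 in Irs2, against 9.21 to 9.30 on the others of its group. Knockout-labelled array 3 read 11.07 in Gpd2, against 10.44 to 10.53, and wild-type array 2 read 8.22 in Slc37a1, against 8.04 to 8.06.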

How the results depend on the processing

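The number of arrays and 2 of them, those numbered 1, limit these results. Array weights moved Pck1 to 0.67 and G6pc to 0.75 and past the threshold, with 2 members, 4 other pathway genes and 707 genes passing in all. Leaving out both arrays numbered 1 gave 0.78 for Pck1, 0.87 for G6pc and 0.33 for Slc37a4, with 3 members, 4 other pathway genes and 1489 genes passing; this choice was made with the data known. With single arrays left out, Pck1 ran from 0.45 to 0.71, G6pc from 0.47 to 0.72, Slc37a4 from 0.082 (without knockout-labelled array 3) to 0.27 (without its array 1), Pck2 from 0.13 (without knockout-labelled array 2) to 0.26, and Fbp1 from -0.046 to 0.0074, where it was positive without knockout-labelled array 3 (0.0074) and array 4 (0.0055). Tpi1 was at 0.055 without knockout-labelled array 3 and Pfkfb3 at 0.044 without knockout-labelled array 1. Members passing ran from 0 to 2, other pathway genes from 0 to 4 and all genes from 0 to 877, which was 877 without knockout-labelled array 1 and 59 without wild-type array 1. Of the genes named beside the members, the sign turned in Pfkfb3 without both arrays numbered 1 (-0.0096), in Pklr without knockout-labelled array 3 (-0.12) and wild-type array 2 (-0.10), within a range from -0.12 to 0.12, and in Rictor without knockout-labelled array 3 (-0.030) and wild-type array 3 (-0.013), within a range from -0.030 to 0.15; none of these passed, and the cause was not tested.

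With the replicate number as a block, Pck1 and G6pc kept 0.55 and 0.56 (limma adjusted p = 0.331 and 0.372) and 0 genes passed, as without it; 2 of 8 arrays correlated best with the same number in the other group. The other fits (all named probe sets, all probe sets, the brighter probe sets, median centring, quantile normalization, no trend, mean of probe sets) left every member's direction and its side of the adjusted threshold as reported. At an unadjusted p, Pcx missed 0.05 under quantile normalization (limma unadjusted p = 0.0859), without the trend (0.0610) and without knockout-labelled array 2, 3 or 4 or wild-type array 1 or 2 (0.0843 to 0.144). Median centring moved the median difference of all genes to -0.0034, against -0.02 as deposited. The ratio differences kept their signs in every alternative run for them, and none passed; with 3 against 4 arrays, 3 against 3 or 4 pairs the smallest exact p (0.0571, 0.100 and 0.125) cannot pass.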

Other observations

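Gluconeogenic enzymes are richer in the hepatocytes around the portal vein, and other genes of that zone did not share one direction. Of 8 listed periportal markers outside the 7 members 5 were measured, and their median difference was -0.12. Hsd17b13, a lipid-droplet protein, was higher in knockout-labelled livers on every array, with 12.34 to 12.90, against 12.08 to 12.22 in wild-type livers (0.47, SE 0.10, limma adjusted p = 0.143). Such an upward separation was seen in 1.81% of all genes. Hal, which deaminates histidine, had a difference of -0.26 (SE 0.10; limma adjusted p = 0.380) and Aldh1b1 of -0.46 (SE 0.16; limma adjusted p = 0.317), while Cyp2f2 lay at -0.12 and Pigr at 0.17. The 9 pericentral markers, Glul and Cyp2e1 among them, had a median of -0.083, against -0.02 over all genes. Of these markers 7 had a lower mean and 2 a higher one, where 43.1% of all genes had a higher mean. None of these genes passed with all 8 arrays. In the fits in which Pck1 and G6pc passed, Hsd17b13 passed as higher, at 0.56 when arrays were weighted (limma adjusted p = 0.0117), at 0.56 once knockout-labelled array 1 was dropped (limma adjusted p = 0.00614) and at 0.58 once array 1 of each group was dropped (limma adjusted p = 0.00164). Aldh1b1 passed as lower in the first of these fits (-0.57, limma adjusted p = 0.0398) and in the last (-0.66, limma adjusted p = 0.0111). Hal and Cyp2f2 passed as lower in the last one, at -0.35 and -0.22 (limma adjusted p = 0.0410 and 0.0242). Of all genes, 1.31%, 1.1% and 2.39% passed as higher in these fits, in the order given for Hsd17b13. As lower passed 2.23%, 3.3% and 5.08%. Leaving out the arrays numbered 1 was a choice made with the data known.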
